A study of Mus musculus with 282 samples.

Results

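The 6 genes described here, *Foxj1*, *Ccdc153*, *Dynlrb2*, *Rsph1*, *Tmem212* and *Enkur*, mark ciliated ependymal cells. They were chosen by name in the merged transcript assembly, and each name matched 1 gene row, so that 6 of the 14079 gene rows of the expression table are described. The rows came from hypothalamus of 282 male mice of 99 inbred and recombinant inbred strains of the hybrid mouse diversity panel (HMDP), all of which ate a high fat diet. RNA was sequenced as unstranded mRNA libraries, and levels are FPKM, fragments per kilobase of transcript scaled to the mapped fragments of the library, without the counts they came from, so how many reads stand behind each value is not known here. The age of the mice was not given in the labels. The strains fell into 43 BXD strains (derived from C57BL/6J and DBA/2J), 18 AXB/BXA strains (C57BL/6J and A/J), 6 BXH strains (C57BL/6J and C3H/HeJ), 7 CXB strains (C57BL/6 and BALB/c) and 25 classical inbred strains. The labels call the mice of a strain biological replicates.

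Ependymal cells line the brain ventricles, and in the hypothalamus they line the dorsal walls of the third ventricle. Each bears a tuft of motile cilia whose beat moves cerebrospinal fluid along the wall. A motile cilium is built around an axoneme of microtubules, dynein arms, radial spokes and linking complexes, and its genes are switched on by a small set of transcription factors, with FOXJ1 and members of the RFX family foremost. Tanycytes, which line the ventral walls of the ventricle, mostly lack such tufts, and the primary cilium of neurons is an immotile relative of the organelle.

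Some libraries stood apart before any comparison. A pair of libraries from CXB-6/ByJ mice was nearly identical across the gene rows (r = 0.99999991, against 0.991 for the next most alike mice), and the pair was counted as 1 mouse. The labels of 1 further mouse named more than 1 strain, so it entered no comparison, and 280 mice remained. The FPKM summed over gene rows lay between 322047 and 359916 in all but 2 libraries. A BXD-12/TyJ mouse reached 792801 and a CXB-3/ByJ mouse 463433, and both are kept below with values given without them where they matter. The profiles of 1 CXB-7/ByJ and 1 PL/J mouse were nearer to the mean of another strain than to their own. The 2 cases differed, over the 200 gene rows with the largest part of their variance between strains. The CXB-7/ByJ mouse had r = -0.0027 with its own strain and 0.948 with BXA-12/PgnJ. The PL/J mouse had r = 0.581 with its own strain and 0.611 with BXD-5/TyJ. Both were kept in the main fits under their labels.

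The genes lie on 6 chromosomes (mm10, as in the deposited assembly), and each has a role in the cilium or is known as a marker of these cells. *Foxj1* (chr11:116330704-116336208, minus strand) encodes the forkhead factor that drives motile ciliogenesis. *Rsph1* (chr17:31255019-31277356, minus strand) encodes a head protein of the radial spokes. *Dynlrb2* (chr8:116504985-116515951, plus strand) encodes a roadblock-type dynein light chain. *Enkur* (chr2:21180731-21205365, minus strand) encodes enkurin, a protein found inside the doublet microtubules of motile cilia. *Ccdc153* (chr9:44240677-44247306, plus strand) encodes a coiled-coil protein of the axoneme, and *Tmem212* (chr3:27866066-27896368, minus strand) a membrane protein. The last 2 are commonly used as ependymal markers.

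RefSeq (GRCm38.p6) provided start sites for 4 of the 6 genes, *Ccdc153*, *Dynlrb2*, *Tmem212* and *Enkur*. The bases before the transcribed part are shown because RFX and forkhead factors act on cilium genes through short promoter motifs, and because the 4 genes varied together among mice (below). For *Dynlrb2* the stretch stops short of the RefSeq start, where the deposited gene row begins, and for the other genes both starts are the same base. The sequences run 5′ to 3′ on the strand of the gene, and capitals mark matches to GTTGCC, to a paired site of GTNNCC and NGNAAC with 0 to 3 bases between (both the letters of RFX sites), and to TGTTTA (forkhead). Both strands were searched, GTTGCC can lie inside the paired site, and a longer forkhead form, TGTTTAC, was searched as well.
Ccdc153, chr9:44240427-44240676, plus strand: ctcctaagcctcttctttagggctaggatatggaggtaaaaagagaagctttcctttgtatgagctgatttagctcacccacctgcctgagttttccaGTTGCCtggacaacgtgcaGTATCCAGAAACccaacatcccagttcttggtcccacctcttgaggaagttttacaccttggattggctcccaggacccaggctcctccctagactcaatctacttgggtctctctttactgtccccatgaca
Dynlrb2, chr8:116504765-116504984, plus strand: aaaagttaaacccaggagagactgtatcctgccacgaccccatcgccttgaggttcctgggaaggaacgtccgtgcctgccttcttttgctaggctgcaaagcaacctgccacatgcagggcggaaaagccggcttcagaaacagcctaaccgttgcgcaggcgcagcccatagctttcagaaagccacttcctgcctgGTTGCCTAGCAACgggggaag
Tmem212, chr3:27896369-27896618, minus strand: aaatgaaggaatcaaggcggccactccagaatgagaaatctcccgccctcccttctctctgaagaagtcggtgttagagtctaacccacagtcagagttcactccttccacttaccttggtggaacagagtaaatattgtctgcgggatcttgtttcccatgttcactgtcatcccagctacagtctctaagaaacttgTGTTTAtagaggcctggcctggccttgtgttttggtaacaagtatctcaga
Enkur, chr2:21205366-21205615, minus strand: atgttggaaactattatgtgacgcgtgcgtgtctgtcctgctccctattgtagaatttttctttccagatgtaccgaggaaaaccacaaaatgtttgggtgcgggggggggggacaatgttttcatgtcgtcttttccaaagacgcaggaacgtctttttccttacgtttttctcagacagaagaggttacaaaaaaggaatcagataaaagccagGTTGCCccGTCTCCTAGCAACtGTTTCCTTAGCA

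The search window ran from 250 bases before to 50 bases after a start, and the shares over 32851 RefSeq windows of that kind give the background. GTTGCC stood in the windows of *Ccdc153*, *Dynlrb2* and *Enkur*, and in 12.5% of all windows. The paired site stood in the same 3 windows, and in 5.25% of all windows. *Enkur* held 2 paired matches, GTCTCCTAGCAAC and GTTTCCTTAGCAAC, the second running 2 bases past the start and printed above only up to it, and *Dynlrb2* held GTTGCCTAGCAAC. *Ccdc153* held GTATCCAGAAAC. TGTTTA stood before the start of *Tmem212* and after the start of *Enkur*, and in 13.4% of all windows. TGTTTAC stood in none of the 4 windows and in 3.65% of all. These matches describe letters only, and no binding was measured.

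All 6 genes were above 1 FPKM in each of the 280 mice, with means within a narrow band. *Foxj1* ranged from 4.49 FPKM through a median of 7.77 to 13.7, with a mean of 8.02 ± 1.74 (SD, n = 280). *Ccdc153* ranged from 2.09 through 5.80 to 27.9, with a mean of 5.94 ± 2.11. *Dynlrb2* ranged from 2.92 through 7.57 to 25.5, with a mean of 7.81 ± 2.54. The highest *Ccdc153* and *Dynlrb2* values were both those of the BXD-12/TyJ mouse with the large FPKM sum, and the next highest, 12.9 and 19.7 FPKM, those of the CXB-3/ByJ mouse. *Rsph1* ranged from 4.88 through 8.72 to 28.7, with a mean of 9.46 ± 3.39. *Tmem212* ranged from 2.19 through 9.47 to 30.7, with a mean of 9.75 ± 3.02. *Enkur* ranged from 3.46 through 6.10 to 11.3, with a mean of 6.30 ± 1.44. For *Tmem212* and *Enkur* too the BXD-12/TyJ mouse was highest, whereas the highest *Rsph1* value came from a KK/HlJ mouse and the highest *Foxj1* value from the CXB-3/ByJ mouse. In bulk tissue, fewer ciliated cells in a dissected piece and less RNA per ciliated cell cannot be told apart.

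**Figure D1:**
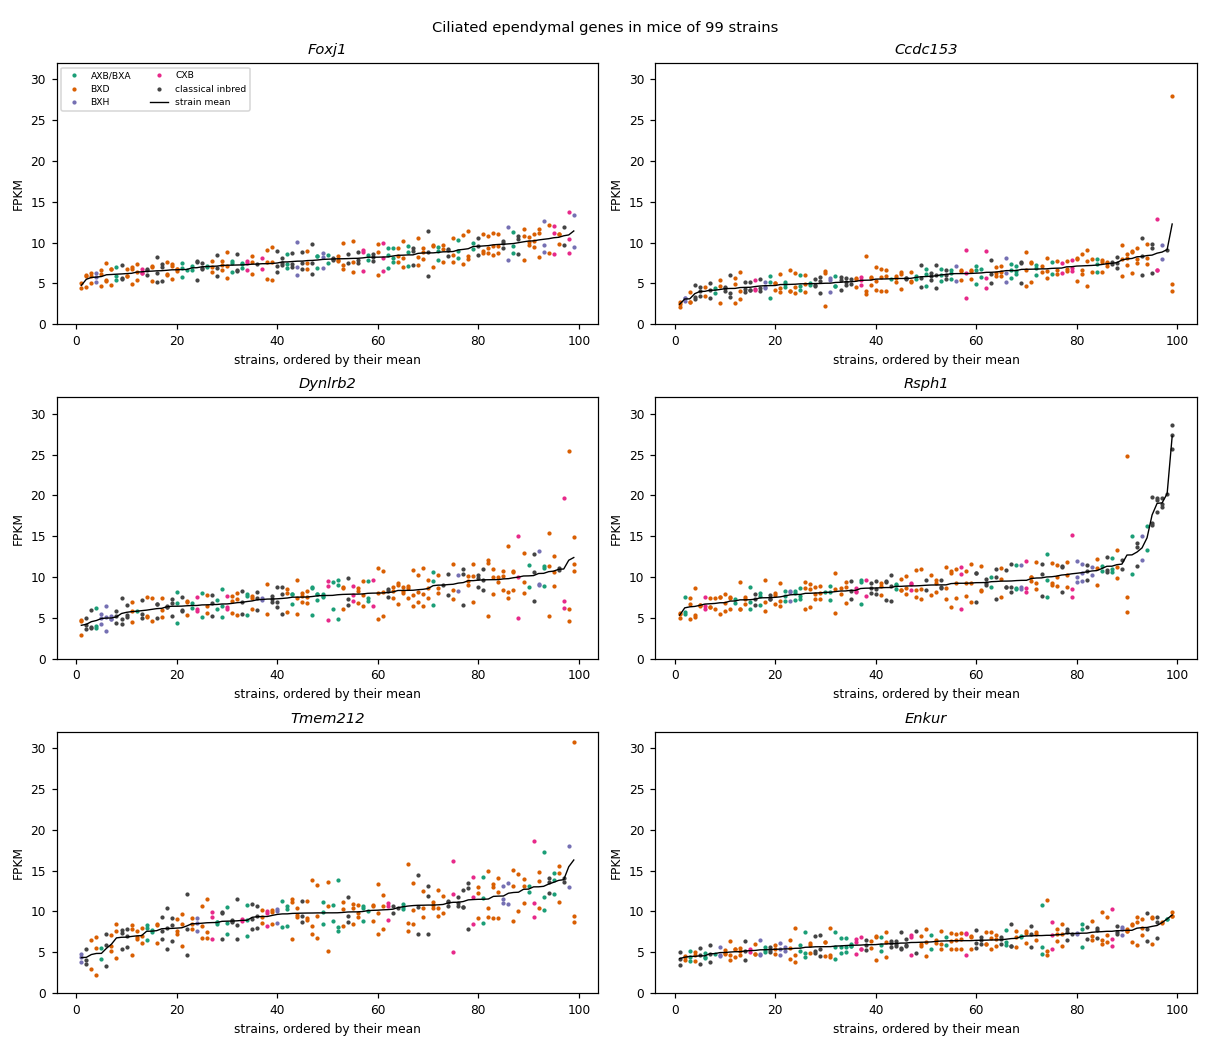
FPKM of the 6 genes (vertical axes) in 280 mice of 99 strains, each panel with its strains ordered by their own mean (horizontal axes); points are mice coloured by strain set, and the black line joins the strain means. The highest points at the right end of *Ccdc153*, *Dynlrb2* and *Tmem212*, far above the line, belong to 1 BXD-12/TyJ mouse. In *Dynlrb2* the point at 19.7 FPKM, also far above the line, is a CXB-3/ByJ mouse. In *Rsph1*, 5 strains form a step at the right end.

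The first question was whether the genes differed between strains. All 6 did, by limma's moderated F test on log2(FPKM + 1) over 99 strains, in a table where 74.9% of all gene rows differed, so that the count itself does not set them apart. Adjusted p-values (Benjamini-Hochberg over 14079 rows) ran from 2.65e-23 for *Rsph1* to 3.52e-06 for *Dynlrb2*. The strain share, the part of the variance in log2 values that lies between strains, was 0.62 for *Rsph1*, 0.48 for *Foxj1*, 0.42 for *Tmem212*, 0.39 for *Ccdc153*, 0.33 for *Enkur* and 0.30 for *Dynlrb2*. The median share of all rows was 0.22, and the 6 genes stood between the 65.3 and the 93.4 percentile. Without the 2 libraries of large FPKM sum, the shares were 0.70 for *Rsph1*, 0.48 for *Foxj1* and 0.45 for *Tmem212*. They were then 0.48 for *Ccdc153*, 0.36 for *Enkur* and 0.39 for *Dynlrb2*. Mice of 1 strain differed from each other by an SD of 0.20 (*Foxj1*) to 0.32 (*Dynlrb2*) on the log2 scale, so 1 SD within strains was a 1.15-fold to 1.25-fold difference in FPKM + 1. All 6 remained below the threshold of 0.05 in every alternative run for this test (other scales, covariates, filters and tests, and left-out mice, replicates or strains), which did not include single strain sets.

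Ordered by mean, neighbouring strains could hardly be told apart. In 95 (*Rsph1*) to 98 (*Foxj1*, *Dynlrb2*, *Tmem212*) of the 98 neighbouring pairs, the mice of the 2 strains overlapped. The ends of the order differed more. The mean of *Foxj1* rose from 4.75 FPKM in BXD-34/TyJ (n = 2), 5.50 in BXD-9/TyJ and 5.73 in BXD-40/TyJ to 10.8 in PL/J, 10.9 in CXB-3/ByJ and 11.4 in BXHA1 (n = 2), a 2.40-fold range. Without the PL/J mouse that was nearer to another strain, the single other PL/J mouse, at 11.9 FPKM, took the top of this order. *Enkur* had a 2.27-fold range, from 4.21 in NZW/LacJ, 4.39 in BXD-40/TyJ and 4.49 in BXA-4/PgnJ to 8.64 in BXD-6/TyJ, 9.07 in AXB-2/PgnJ and 9.57 in BXD-14/TyJ. Both BXHA1 mice (9.51 and 13.3 FPKM) lay above both BXD-34/TyJ mice (4.49 and 5.01) in *Foxj1*, and the 3 BXD-14/TyJ mice (9.38, 9.41 and 9.91) above the 3 NZW/LacJ mice (3.46, 4.11 and 5.07) in *Enkur*.

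*Ccdc153* and *Dynlrb2* shared their lowest strain. *Ccdc153* averaged 2.45 FPKM in BXD-24/TyJ, whose mice gave 2.09, 2.49 and 2.76 FPKM, followed by 3.09 in BXHB2 and 3.11 in BXD-40/TyJ. Its highest mean, 12.3 in BXD-12/TyJ, rested on 1 mouse of 27.9 FPKM beside 4.01 and 4.88 FPKM in the others. Without that mouse the highest mean was 9.15 in I/LnJ (1 mouse), and the range was 3.74-fold in place of 5.02-fold. *Dynlrb2* averaged 4.08 in BXD-24/TyJ, 4.20 in C3H/HeJ and 4.52 in NZW/LacJ. Its highest means were 12.4 in BXD-14/TyJ (10.7, 11.6 and 14.9 FPKM), 12.1 in BXD-12/TyJ (4.64, 6.02 and 25.5) and 10.98 in CXB-3/ByJ (6.16, 7.06 and 19.7), so that of the 3 only BXD-14/TyJ was high in each mouse. *Tmem212* ran from 4.34 in BXHB2, 4.37 in NZW/LacJ and 4.71 in BXD-34/TyJ to 13.9 in PL/J, 15.5 in BXHA1 and 16.3 in BXD-12/TyJ, where again 1 mouse of 30.7 FPKM stood beside 8.67 and 9.48.

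The same strains recurred at the low end. BXD-24/TyJ, BXD-40/TyJ, BXHB2 and NZW/LacJ were each among the 10 lowest strains for 5 of the 6 genes, and BXD-34/TyJ for 4. BXD-24/TyJ ranked first from the bottom for *Ccdc153*, *Dynlrb2* and *Rsph1*, and ranked 6, 7 and 13 from the bottom for *Foxj1*, *Tmem212* and *Enkur*. Its libraries include the one with the fewest read pairs of the series, and whether depth bears on these ranks was not tested. No strain was among the 10 lowest, or the 10 highest, for all 6 genes. AXB-2/PgnJ, BXD-12/TyJ, BXHA1 and CXB-3/ByJ were among the 10 highest for 4 genes each, and for BXD-12/TyJ and CXB-3/ByJ this includes the 2 libraries with large FPKM sums.

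*Rsph1* departed from its fellows in 5 classical inbred strains, none of which is a parent of a recombinant inbred set here. The 3 KK/HlJ mice gave 25.7, 27.4 and 28.7 FPKM. The single I/LnJ mouse gave 20.2 FPKM. The 3 LG/J mice gave 18.6, 18.97 and 19.7 FPKM. All 7 values lay above the means of the other 94 strains, which ran from 5.32 FPKM (BXD-24/TyJ) to 14.8 (AXB-2/PgnJ). The 3 NZB/BlNJ mice gave 17.9, 19.4 and 19.7 FPKM. The 3 NZW/LacJ mice gave 16.4, 16.6 and 19.8 FPKM. KK/HlJ overlapped no other strain. Among the 267 mice of the other strains, the 24.8 FPKM of the BXD-12/TyJ mouse with the large FPKM sum lay inside the range of the 13 mice. Since these 5 strains were picked for their *Rsph1* level, that difference is a description without a test.

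Taken as a group, the 5 strains did not have such a step in the other 5 genes. The mean of the 5 strains was 2.302 times that of the other 94 for *Rsph1*, against 0.89 for *Foxj1*, 1.02 for *Ccdc153*, 0.85 for *Dynlrb2*, 0.83 for *Tmem212* and 0.99 for *Enkur*. The single I/LnJ mouse, at 9.15 FPKM, was also high in *Ccdc153*, with rank 98 of 99 from the lowest. NZW/LacJ had the fifth highest *Rsph1* mean, and ranked 9, 4, 3, 2 and 1 from the lowest for *Foxj1*, *Ccdc153*, *Dynlrb2*, *Tmem212* and *Enkur*. Without the 5 strains the strain share of *Rsph1* was 0.36 and its range 2.78-fold. The step was also present in the row that sums transcripts of the annotated *Rsph1* start site, at 16.4 to 28.7 FPKM in the 13 mice and 3.08 to 15.3 in the other 267, with no overlap. For the annotated *Rsph1* transcript alone the ranges met, with 13.9 to 27.3 FPKM in the 13 mice and at most 15.2 in the others. The nearest genes with a gene row on either side of *Rsph1* on chromosome 17 were looked at in the same strains. Genes without a row were not covered. The strain means of *Abcg1* (a cholesterol transporter) were 16.6 to 18.6 FPKM in the 5 strains and 14.3 to 21.1 in the others. Those of *Pde9a* (a cyclic GMP phosphodiesterase) were 9.07 to 12.05 and 8.53 to 23.2, and those of *Wdr4* 8.43 to 9.63 and 6.04 to 10.9. The groups overlapped in all 3, and also in *Glo1*, at 25.6 to 63.2 against 26.9 to 148.1 FPKM.

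**Figure D2:**
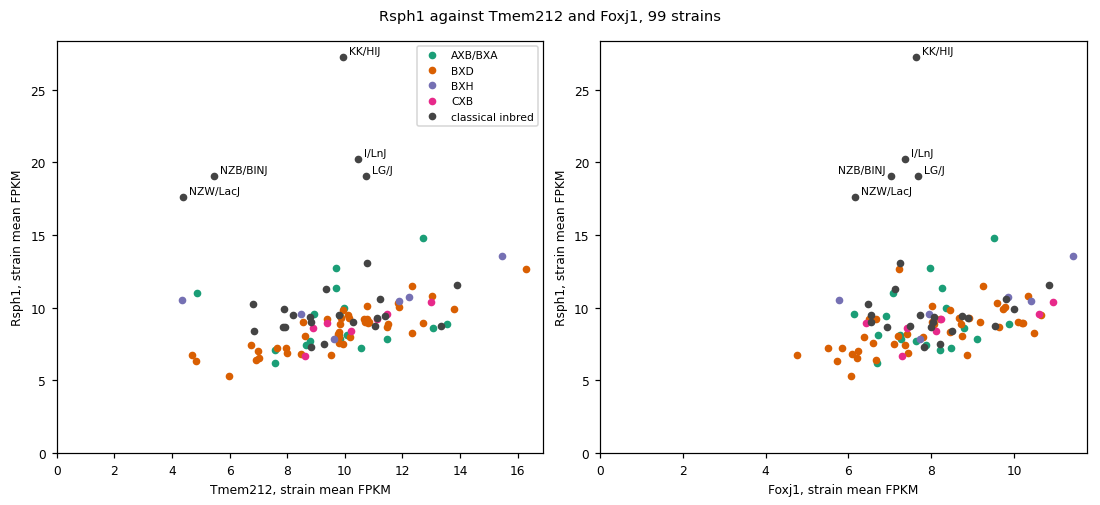
Strain means of *Rsph1* in FPKM (vertical axes) against those of *Tmem212* (left) and *Foxj1* (right) in FPKM (horizontal axes); each point is 1 of 99 strains coloured by strain set. The 5 named strains lie between 17.6 and 27.3 FPKM of *Rsph1*, above the 14.8 FPKM that the others reached, without lying to the right of them in *Tmem212* or *Foxj1*.

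The strain share varied with the strain set. *Rsph1* had a share of 0.87 among the 25 classical inbred strains, 0.64 among the AXB/BXA, 0.61 among the BXH and 0.22 among the BXD strains. *Foxj1* was the most even, at 0.36 (classical inbred) to 0.53 (BXD). *Tmem212* had a share of 0.92 among the 6 BXH strains, where its strain means ran from 4.34 to 15.5 FPKM, and *Ccdc153* one of 0.80. Among the 7 CXB strains the shares of *Dynlrb2*, *Tmem212*, *Enkur* and *Rsph1* were estimated at or below 0 (-0.25, -0.21, -0.12 and -0.01), which means that strain means differed by no more than the spread of mice would give. The CXB set holds the CXB-3/ByJ mouse with the large FPKM sum and the CXB-7/ByJ mouse nearer to another strain. The BXD set holds the BXD-12/TyJ mouse with the large FPKM sum. Shares by set were not recomputed without these mice, and differences between sets in these shares were not tested.

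The parents of the recombinant inbred sets were compared with C57BL/6J, which is common to all of them, in contrasts of the same fit with 3 mice per strain. BALB/cJ stood in for the BALB/c parent of the CXB set, the C57BL/6J mice serve in each contrast, and the contrasts therefore share them. Of the 6 genes, 2 differed for A/J, where 7.98% of all gene rows did. None passed for DBA/2J (6.85% of rows), C3H/HeJ (7.56%) or BALB/cJ (6.75%), with 2, 3 and 0 genes respectively at an unadjusted p under 0.05. *Foxj1* was 8.48, 9.64 and 10.5 FPKM in C57BL/6J and 5.29, 7.04 and 7.34 in A/J. The groups did not overlap, and the difference was -0.49 ± 0.16 (SE) on the log2 scale (limma, adjusted p = 0.0424). *Ccdc153* was 6.87, 7.48 and 8.28 FPKM in C57BL/6J and 3.44, 4.05 and 4.53 in A/J, again without overlap, at -0.77 ± 0.24 (limma, adjusted p = 0.0245). These 2 calls were near the threshold, and leaving out 1 replicate of each strain gave 0 or 1 calls over the 4 contrasts. Leaving out the BXD-12/TyJ mouse of large FPKM sum, or the CXB-3/ByJ mouse, gave 4 calls, as did quantile normalization or mapping covariates.

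**Figure D3:**
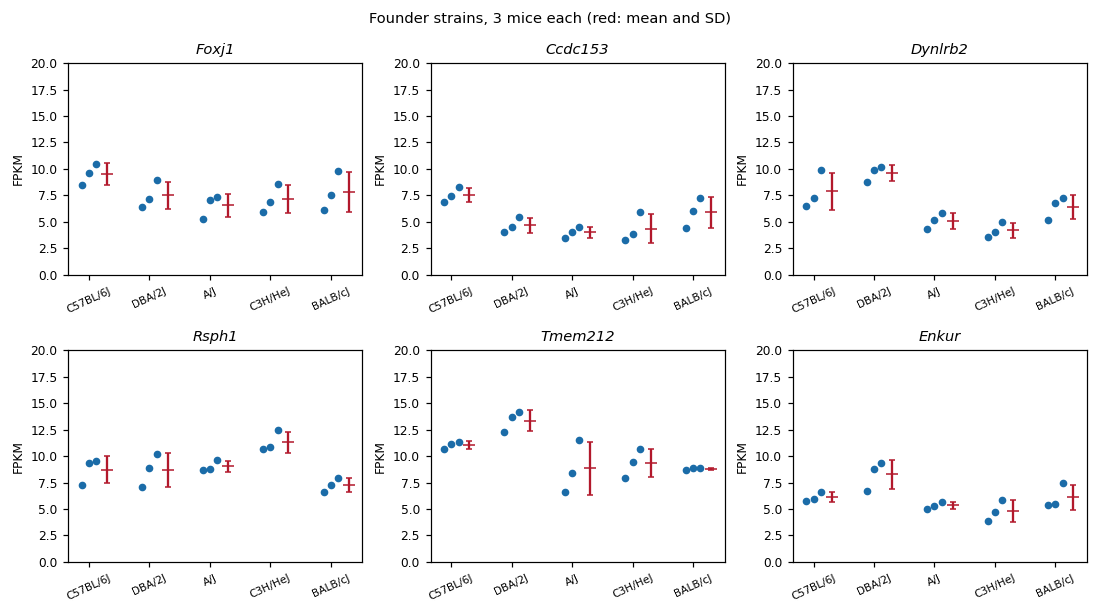
FPKM (vertical axes) of the 6 genes in C57BL/6J and 4 other strains (horizontal axes), with 1 blue point per mouse (n = 3) and the mean with its SD in red. In *Ccdc153* the 3 C57BL/6J mice, at 6.87 to 8.28 FPKM, lie above the 3 A/J mice, at 3.44 to 4.53.

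The remaining contrasts give bounds more than answers. *Ccdc153* was 3.33, 3.83 and 5.98 FPKM in C3H/HeJ, a difference from C57BL/6J of -0.70 ± 0.24 (limma, adjusted p = 0.0541), and *Dynlrb2* was 3.58, 4.07 and 4.96 there against 6.51, 7.25 and 9.89 in C57BL/6J, at -0.76 ± 0.26 (limma, adjusted p = 0.0538). In DBA/2J, *Ccdc153* was 4.08, 4.48 and 5.48 FPKM (-0.59 ± 0.24, limma, adjusted p = 0.131) and *Enkur* 6.74, 8.73 and 9.35 against 5.79, 5.94 and 6.63 in C57BL/6J (0.37 ± 0.19, limma, adjusted p = 0.274). *Rsph1* in DBA/2J was 7.03, 8.88 and 10.2 against 7.23, 9.36 and 9.53 FPKM in C57BL/6J. The groups overlapped, and the difference was -0.0043 ± 0.19 (SE), whose sign changed with the processing.

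The second question was whether the genes varied together among mice of 1 genotype. Mice of an inbred strain are near copies of each other, so deviations from the strain mean hold differences of dissection, library and animal rather than of strain. The CXB-7/ByJ mouse with a profile nearer BXA-12/PgnJ may be an exception, and it was kept. Deviations of log2(FPKM + 1) were correlated over the mice of the 97 strains with 2 or more mice, that is all 280 less the 2 that were alone in their strain, and the p-values come from a 2-sided permutation within strains with 100000 resamples, adjusted over all 84468 pairs of a member with a gene row. All 15 pairs among the 6 genes were positively correlated and called, where 17.5% of all pairs were. Pearson's r ran from 0.30 (*Foxj1* with *Dynlrb2*, rho = 0.30, permutation p = 0.00022, adjusted p = 0.00195) to 0.64 (*Ccdc153* with *Rsph1*, rho = 0.53, permutation p = 1e-05, the smallest these permutations can give, adjusted p = 0.000199), with a median of 0.47.

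*Rsph1* was tied to the others within strains. Its r was 0.64 with *Ccdc153*, 0.58 with *Dynlrb2*, 0.55 with *Tmem212*, 0.52 with *Foxj1* and 0.38 with *Enkur*. *Foxj1* and *Tmem212* had r = 0.53, and *Ccdc153* and *Tmem212* r = 0.63. *Dynlrb2* and *Enkur* were the looser members, with r = 0.31 between them and r = 0.34 between *Dynlrb2* and *Tmem212*. The r of each pair was also set against the r of its first gene, in the order of the opening list, with all other rows. By that measure the pairs ranked between the 85.5 and the 99.99 percentile. Ranks by the second gene of a pair were not computed.

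The size of r moved with single mice and with a component common to many genes. Without the BXD-12/TyJ mouse of large FPKM sum, r ran from 0.23 to 0.58 with a median of 0.36, and without the CXB-3/ByJ mouse as well from 0.20 to 0.56 with a median of 0.35. All 15 pairs were still called. They were also called without the CXB-7/ByJ and PL/J mice nearer another strain, with r from 0.30 to 0.64 and a median of 0.47. Dropping, for each pair, the 2 mice with the most extreme values of its first gene gave r from 0.24 to 0.58 (15 of 15 called). The first principal component of the deviations of all genes took 14.9% of their variance and correlated with the 6 genes at 0.29 (*Enkur*) to 0.66 (*Ccdc153*). With that component as a covariate, 12 of the 15 pairs were called and the median r was 0.34. What the component holds was not tested. By strain set, all 15 pairs were called in the 126 BXD mice, 6 in 70 classical inbred mice, 3 in 20 CXB mice, 2 in 46 AXB/BXA mice and 0 in 16 BXH mice, where 4 of the pairs had r below 0. The lowest of these was *Dynlrb2* with *Enkur* at r = -0.37 (permutation p = 0.283). The BXD set kept the BXD-12/TyJ mouse of large FPKM sum and the CXB set the CXB-3/ByJ mouse. Correlations by set were not recomputed without them.

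**Figure D4:**
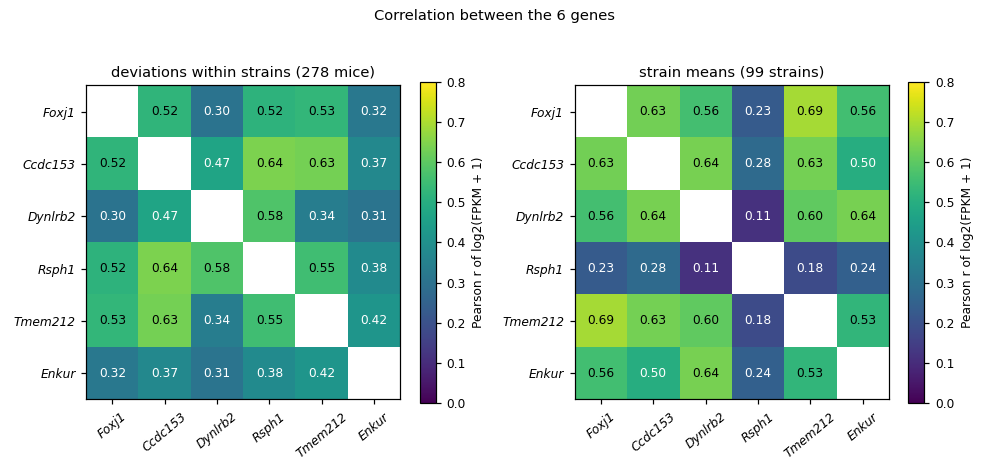
Pearson's r of log2(FPKM + 1) between the 6 genes, for deviations from the strain mean in the mice of 97 strains (left) and for the means of 99 strains (right), with colour from 0 to 0.8. Within strains all cells lie between 0.30 and 0.64, whereas between strain means the *Rsph1* row and column, at 0.11 to 0.28, are lower than the rest, at 0.50 to 0.69.

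The third question was whether strains high in 1 gene were high in the others. Over 99 strain means, the 10 pairs without *Rsph1* were all called, where 3.15% of all pairs of a member with a gene row were. Their r ran from 0.50 (*Ccdc153* with *Enkur*) to 0.69 (*Foxj1* with *Tmem212*, rho = 0.68), each with a permutation p of 1e-05 and an adjusted p of 0.00133. The 5 pairs with *Rsph1* had r of 0.11 with *Dynlrb2*, 0.18 with *Tmem212*, 0.23 with *Foxj1*, 0.24 with *Enkur* and 0.28 with *Ccdc153*, and none was called (permutation p = 0.0057 to 0.267, adjusted p = 0.0702 to 0.558). By Spearman's rho, which the 5 high strains weigh less on, these pairs gave 0.22 to 0.40, and 4 of 5 were called. Dropping, for each pair, the 2 strains with the most extreme means of its first gene, 10 pairs were called and r ran from 0.09 to 0.66. Strains of 1 recombinant inbred set are related, which the permutation does not take into account.

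The low *Rsph1* correlations moved with the 5 high strains. Without them, the r of *Rsph1* was 0.48 with *Tmem212*, 0.47 with *Foxj1*, 0.40 with *Ccdc153*, 0.37 with *Enkur* and 0.32 with *Dynlrb2*, and all 15 pairs were called. Among the 43 BXD strains the r of *Rsph1* with the others was 0.68 (*Foxj1*) to 0.81 (*Dynlrb2*), and between the others 0.54 to 0.76. Among the 25 classical inbred strains it was -0.23 to 0.16, while the 10 pairs without *Rsph1* had r of 0.50 to 0.75. The BXD means kept the BXD-12/TyJ mouse of large FPKM sum, and the BXD correlations were not recomputed without it. The difference between the sets was not tested. The 5 strains were chosen after their values were seen.

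The genes most like the 6 were then ranked by the median of their r with the 6 members. Within strains the first was *Rarres2*, which encodes the adipokine chemerin, with a median r of 0.53 and a level of 18.1 ± 6.17 FPKM. *Odf3b*, an outer dense fibre relative on the cilium lists, followed at 0.53, and then *2410004P03Rik* at 0.52. *Dbi*, the acyl-CoA binding protein abundant in ependymal cells, tanycytes and astrocytes, had a median r of 0.51 at 247.2 FPKM. *Ascc1* (0.49), the locus that joins *Cby1* and *Tomm22* (0.48), *Cdhr3* (0.48), *Calb2* (0.48) and 2 loci without a name completed the 10. Each of the 10 was positively called with all 6 members. CBY1 is a basal body protein and CDHR3 a cadherin of ciliated airway cells. *Ascc1*, *Calb2* and the *Cby1* and *Tomm22* locus had strain shares of 0.05, 0.07 and 0.13, below the median of all genes.

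Between strain means 4 of the 10 most alike genes were on the motile cilium lists. *Dnah6*, a dynein heavy chain, had a median r of 0.64, and *Dnali1*, a light intermediate chain of inner dynein arms, 0.63. *Lrrc36* had 0.62 and *1700009P17Rik*, later named *Cfap126*, 0.61. *Tm4sf1* (0.59), *1700001C02Rik* (0.58) and 4 loci without a name completed the 10. An unnamed locus, XLOC_007522, ranked first between strains (0.69) and sixth within strains (0.51), at 4.46 ± 0.89 FPKM. *Rsph1* on its own was most like *Dbi* (r = 0.67), *Sil1* (0.64) and *Bex2* (0.63) within strains, followed by *Rpl32*, *Swi5* and *Rps19* (0.62 each). At that level it was positively called with 3267 of the 14078 other gene rows and negatively with 2841. Between strains it was most like *4930539E08Rik* (0.58), an unnamed locus (0.52) and another (0.51). *4930539E08Rik* lies on chromosome 17, as does *Rsph1*. *Wdr96*, a cilia and flagella associated gene, had r = 0.46.

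Other motile cilium genes were taken from 5 lists, of which 80 of 135 genes had a gene row. By the F test, 72 of the 80 differed between strains, with a median strain share of 0.25, where 74.9% of all rows did and their median share was 0.22. Within strains, 48 of 80 were positively called with at least 4 of the 6 members, where 13.6% of all gene rows were, and the median over the 80 genes of the median r was 0.28, against 0.03 over all genes. Between strain means, 37 of 80 were, against 1.63% of all rows, with medians of 0.31 and 0.01. Of 36 axonemal and ependymal genes outside the named complexes, 29 were called within and 22 between strains. Of 23 genes of the radial spokes, nexin link and central pair, 10 were called within and 10 between strains. Of 12 dynein arm genes, 7 and 3 were, and of 7 dynein assembly and docking genes, 1 and 1. Of 2 transcription factor genes with a row, *Rfx2* was called at both levels. Covariation counts of all lists, and the ranks of the most alike genes, keep the BXD-12/TyJ mouse of large FPKM sum. They were not repeated under the alternatives, which cover only the 15 pairs of members.

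Within the lists the members parted. Among dynein genes *Dnaic1* (intermediate chain, median r within strains 0.42) and *Dnali1* (0.42) were the most alike and *Dnal1* (-0.29) and *Nme7* (0.09) the least. *Dnal1* was at 20.6 FPKM and *Nme7* had a strain share of 0.83, with 5.31 ± 5.12 FPKM. Among radial spoke and central pair genes, *Ccdc37* (0.37) and *Rsph9* (0.35), a partner of RSPH1 in the spoke head, were high, and *Ccdc39* (-0.15) and *Rsph3a* (0.05) low. *Odf3b* and *Lrrc36* (0.46) led the other axonemal genes, and *Stk36* and *Tmem231* (both 0.09) closed them. *Dnaaf3* (0.29) and *Ccdc114* (0.28) were the highest of the assembly and docking genes, with *Heatr2* (0.08) and the locus that joins *Dyx1c1* and *Ccpg1* (0.04) the lowest. Of the transcription factors, *Rfx2* had a median r of 0.23 within and 0.33 between strains, and *Rfx3* -0.24 and 0.13. Neither passed the test between strains (limma, adjusted p = 0.0561 for *Rfx2* and 0.135 for *Rfx3*).

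**Figure D5:**
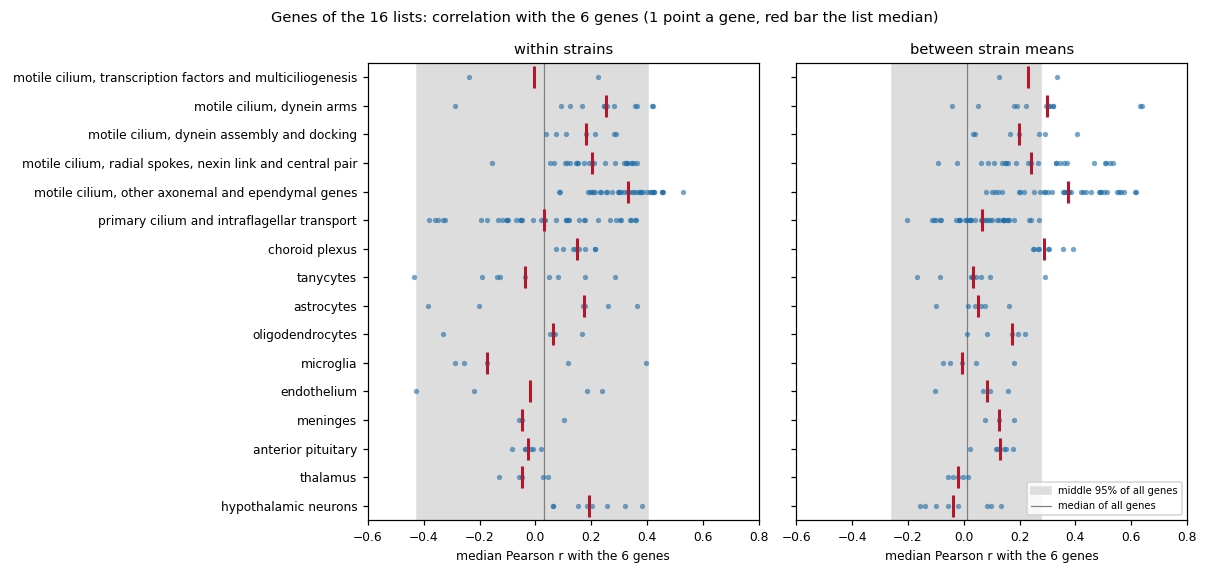
Median Pearson r with the 6 genes (horizontal axes) of each gene of 16 lists (rows), within strains (left) and between strain means (right); blue points are genes, red bars list medians, the grey band the middle 95% of all genes and the grey line their median. Other axonemal and ependymal genes sit highest, with list medians of 0.33 within and 0.37 between strains.

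Genes of the primary cilium and of intraflagellar transport, which both kinds of cilia use, were read against the same background. Within strains 7 of 37 were called with at least 4 members and between strains 0 of 37, both near the shares of all rows (13.6% and 1.63%), with list medians of r of 0.03 and 0.07. *Arl3* (0.36) was at the upper end within strains, and *Cep290* (-0.38) and *Kif3b* (-0.36) at the lower.

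Lists for other cells that a dissected hypothalamus can hold gave calls near the background of all rows. Between strains, no gene of the lists for tanycytes, astrocytes, oligodendrocytes, microglia, endothelium, meninges, anterior pituitary, thalamus or hypothalamic neurons was called with 4 members (1.63% of all rows), and within strains 5 of 51 were (13.6% of all rows). These were *Vim* of the tanycytes (median r 0.29), *Aldoc* of the astrocytes (0.37), the *Agrp* locus, which also holds *Atp6v0d1*, of the neurons (0.38), the *Aif1* locus, which also holds *Lst1* and *Prrc2a*, of the microglia (0.40) and *Avp* of the neurons (0.26), named here after its value was seen. *Col25a1* of the tanycytes (-0.43), *Flt1* of the endothelium (-0.43) and *Slc1a3* of the astrocytes (-0.39) had the lowest values of their lists.

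Choroid plexus, which also hangs into the third ventricle and bears cilia, gave calls at both levels. Its 8 genes had a median r of 0.15 within and 0.29 between strains, with 0.25 to 0.39 between strains for single genes, and 3 of 8 were called with at least 4 members at each level, against 13.6% of all rows within and 1.63% between strains. Within strains the lists of hypothalamic neurons and astrocytes had higher medians (0.19 and 0.17), and the remaining lists for other cells lower ones. Between strains the neuron and astrocyte medians were -0.04 and 0.05. *Ttr*, the thyroid hormone carrier that choroid plexus secretes, ranged from 0.85 through a median of 15.8 to 2040 FPKM, and the 8 choroid plexus genes summed from 11.9 to 2129 FPKM. *Folr1*, *Kcnj13* and *Aqp1* were at 0 in 5, 22 and 3 mice, and the others in none. With a choroid plexus score as a covariate, all 15 pairs of the 6 genes were called within strains (median r 0.46) and 10 of 15 between strains (median r 0.51). Over the 4 contrasts with C57BL/6J, the score left 1 call of a member in place of 2.

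The gene rows sum several transcripts. For *Tmem212* and *Rsph1* the annotated transcript held 93.2% and 89.6% of the mean gene FPKM, and for *Foxj1* 82.8%, beside an unannotated 2-exon isoform at 0.77 ± 0.33 FPKM. *Enkur* had its main transcript at 63.3% and a 2-exon annotated form at 8.88%, and *Ccdc153* its annotated transcript at 53.2%. *Dynlrb2* had 5 transcript rows, each with 5.68% to 26.0% of the mean gene FPKM, which do not make up all of it. Each of the 5 was at 0 in 56 to 155 mice. All of the gene FPKM came from 1 start site, which was at 0 in none. Transcript levels of *Dynlrb2* are therefore uncertain, and its gene row is the firmer value. *Dynlrb1*, its near copy, was at 155.7 ± 34.3 FPKM, so that reads shared between the copies could weigh on *Dynlrb2*, which was not tested.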

How the data were processed

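Hypothalamic mRNA of 282 male mice was sequenced by the authors as unstranded libraries. The authors aligned the reads with STAR 2.3.1 to mm10, built transcript models strain by strain with Cufflinks 2.2.0, joined these with GENCODE and quantified each library with Cuffnorm 2.2.1. The deposited values are FPKM. Per the study's filter each of the 116327 deposited features was above 0 in at least 100 mice and above 1 FPKM in at least 50, which was checked on the values. FPKM hold no counts, so the depth per library and counting error could not be derived from them.

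Names were taken from the merged assembly, and all 14079 gene rows entered each fit as log2(FPKM + 1). Strain differences were tested with limma 3.58.1 (R 4.3.3; moderated F, contrasts from the same fit), and p-values were adjusted by Benjamini-Hochberg over all rows with a threshold of 0.05. The strain share is the intraclass correlation. Covariation was tested by 2-sided permutation (numpy 2.4.6) of deviations within strains or of strain means, with 100000 resamples, over 84468 pairs. In alternatives a pair was called when its raw p was no larger than the largest raw p called in the full table (0.0167 within, 0.00314 between strains). Both tests were checked on simulated data. Of the strains, 84 had 3 mice, 13 had 2 and 2 had 1 mouse (AXB-12/PgnJ and I/LnJ). A mouse with labels of more than 1 strain was left out, and 2 near-identical libraries were averaged, so that 280 mice were fitted, 1 fewer than planned. The limma p-values measure strain differences against the spread between mice of a strain. The covariation p-values measure association, over deviations of mice within strains or over the means of 99 strains.

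The members and gene lists were chosen with earlier results of these data known. Genes were named by a fixed rule: the 6 members, their 3 highest and 3 lowest strains, the 10 genes most alike at each level, and the 2 highest and 2 lowest of each list by r within strains. Some genes that the rule selects are not reported here. The *Rsph1* strains, its neighbours and the genes most like it were added after the values were seen. Alternatives were pseudocounts of 0.1 and 0.01, quantile normalization, mapping statistics or a choroid plexus score as covariates, a minimum mean FPKM of 1, left-out mice, replicates or strains, each strain set alone, Spearman's rho, and a Kruskal-Wallis test.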

Additional observations from a re-analysis of the deposited data

How the results depend on the processing

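All 6 genes differed between strains under every alternative run for that test, which did not include single strain sets, and the calls of the 15 pairs within strains held under all changes of scale, mouse or covariate except the first component of all genes (12 pairs, median r 0.34), added after the data were seen. The median r within strains was 0.36 without the BXD-12/TyJ mouse and 0.35 without the CXB-3/ByJ mouse too. Leaving out 1 replicate of each strain gave 9 to 13 pairs within strains (median r 0.39 to 0.48), a median r between strains of 0.45 to 0.57, and 6421 to 8641 genes that differed between strains. By strain set alone, within strains, there were 2 pairs (median r 0.30) in AXB/BXA, 0 (0.30) in BXH, 3 (0.63) in CXB and 6 (0.25) in classical inbred strains, and between strains 1 (0.38) in AXB/BXA, 15 (0.68) in BXD, 2 (0.67) in BXH, 0 (0.63) in CXB and 7 (0.55) in classical inbred strains, on fewer mice or strains throughout. The BXD and CXB sets kept their mice of large FPKM sum, and were not rerun without them. The sign turned within BXH strains for *Dynlrb2* with *Enkur* (-0.37), *Tmem212* (-0.26) and *Foxj1* (-0.15) and for *Ccdc153* with *Enkur* (-0.12), and within classical inbred strains for *Dynlrb2* with *Tmem212* (-0.0097). Between classical inbred strains it turned for *Rsph1* with *Foxj1* (-0.23), *Tmem212* (-0.16), *Dynlrb2* (-0.10) and *Enkur* (-0.0053). The 2 calls of the 6 genes against C57BL/6J became 4 with quantile normalization, mapping covariates, without the BXD-12/TyJ mouse or without the CXB-3/ByJ mouse, 1 with the choroid plexus score and 0 to 1 without a replicate. The log2 difference of *Rsph1* in DBA/2J turned to 0.0014 with quantile normalization, 0.0063 with the choroid plexus score and lay between -0.064 and 0.040 without a replicate, and in A/J between -0.044 and 0.13. That of *Enkur* in BALB/cJ turned to 0.025 and 0.014, and lay between -0.18 and 0.11 without a replicate. Without a replicate, 572 to 632 genes differed for DBA/2J, 573 to 699 for A/J, 562 to 694 for C3H/HeJ and 495 to 703 for BALB/cJ, and a fit of the 2 strains alone gave 615 for C3H/HeJ and 493 for BALB/cJ. The causes were not tested beyond the smaller samples. No paired analysis was possible because the replicate numbers only follow the order of the records. The FPKM hold no read counts per gene, so no counting error per value was computed.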

Other observations

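The mouse whose labels name more than 1 strain had 5.26 FPKM of *Foxj1*, 3.22 of *Ccdc153*, 3.55 of *Dynlrb2*, 7.41 of *Rsph1*, 5.02 of *Tmem212* and 3.85 of *Enkur*, each below the median of the other mice.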
